A study of Mus musculus with 12 samples.

Results

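The genes described here encode the subunits of the ligand-gated channels for GABA and glycine and of the AMPA, NMDA and delta classes of glutamate receptor. They were taken by symbol alone (Gabra, Gabrb, Gabrd, Gabre, Gabrg, Gabrp, Gabrq, Gabrr, Glra, Glrb, Gria, Grin1 to Grin3 and Grid), and 37 of the 27179 gene IDs in the count files matched. They comprised 6 GABA-A alpha, 3 beta, 7 gamma and minor (gamma, delta, epsilon, pi and theta) and 3 rho subunits, 5 glycine, 4 AMPA, 7 NMDA and 2 delta receptor subunits. The study profiled mouse retina by bulk RNA sequencing in 4 groups of 3 libraries: control at 3 months, ABCA1 knockout (KO) at 3 months, control at 12 months and KO at 12 months. ABCA1 exports cholesterol and phospholipid from cells, and the knockout is labelled as specific to glia. The sources used here do not give the strain, the driver of the deletion, the genotype of the controls beyond that word, the sex of the mice, or whether a library came from 1 animal or several. The p-values below therefore measure the spread between these libraries, which may be technical.

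Receptors for GABA and glycine are pentameric chloride channels that mostly inhibit the cell that carries them, whereas AMPA and NMDA receptors are tetrameric cation channels that excite it. In the retina, photoreceptors and bipolar cells release glutamate, and horizontal and amacrine cells carry the inhibitory signals. GABA receptors made of rho subunits are slow and are best known from the axon terminals of bipolar cells. NMDA receptors combine the obligatory subunit encoded by Grin1 with subunits of the Grin2 group, which set their kinetics and their block by magnesium.

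Library totals ran from 29027099 to 30438026 counts. The targeted gene, Abca1, was not lower in the KO libraries: its level was 20.7, 20.9 and 26.6 counts per 1000000 (CPM) in control and 27.5, 27.2 and 24.3 in KO at 3 months, and 32.6, 27.7 and 31.9 in control and 27.4, 39 and 42.5 in KO at 12 months. Whole retina holds many cells outside the labelled deletion, so these levels do not check the genotype, and KO below means a library so labelled. Xist ran from 52.3 to 85.5 CPM in the KO libraries at 12 months and reached at most 0.609 in the others, while the Y-linked Ddx3y was detected in all 12. Comparisons with the KO libraries at 12 months therefore cannot tell genotype or age apart from whatever raised Xist. The second control library at 3 months stood apart. Its 16 lens genes summed to 4888 CPM, against 51.6 and 190 in the other controls of that age and at most 33 in the other groups. Muscle genes were high in all 3 of those controls, with 12 genes that summed to 115 to 130 CPM against 28.3 to 36.1 elsewhere. Counts of subunits, and values that this second control moved across the threshold or by over 1.5 times, are also given without it.

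Of the 37 subunit genes, 34 had enough counts to be tested. Gabra6, whose alpha6 subunit is best known from cerebellar granule cells, and Gabrp, the pi subunit of epithelial tissues, had 0 counts in all 12 libraries. Gabrq, the theta subunit, had 0 to 9 counts per library. To compare subunits with one another, levels were divided by exon length and are given as CPM per kilobase, as the mean and SD of the 12 libraries.

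The 2 rho subunits Gabrr1 and Gabrr2 had the highest levels per length in the set, at 40.7 ± 3.24 and 32.0 ± 2.64 CPM per kb. Grin1, the obligatory NMDA subunit, followed at 28.2 ± 1.59 CPM per kb. A wide gap separated these 3 genes from the rest: the lowest library for Grin1 (25.7 CPM per kb) was above the highest library of each subunit below it in the order.

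Below the gap came a plateau in which neighbours overlapped over the libraries. Its members included Gria2 (13.4 ± 1.37 CPM per kb), Glrb (13.4 ± 1.21), Grin2d (11.4 ± 1.45), Gabrd (10.8 ± 0.962), Gria4 (10.4 ± 0.936) and Gria1 (10.3 ± 0.619). A further step led to Gabrb2 (6.86 ± 1.24 CPM per kb), Gabra3 (6.24 ± 0.614) and Gria3 (5.98 ± 0.626), and another to Grid1 (3.71 ± 0.350). All later neighbours in the order overlapped, down to Grin2b (0.0905 ± 0.0219 CPM per kb), Grin2a (0.0835 ± 0.0321) and Gabrq (0.0309 ± 0.0164). The order within the plateau depended on the exon set: with all GENCODE transcripts in place of the basic set, Gria2 moved from place 6 to 11, while places 1 to 3 did not change.

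**Figure D1:**
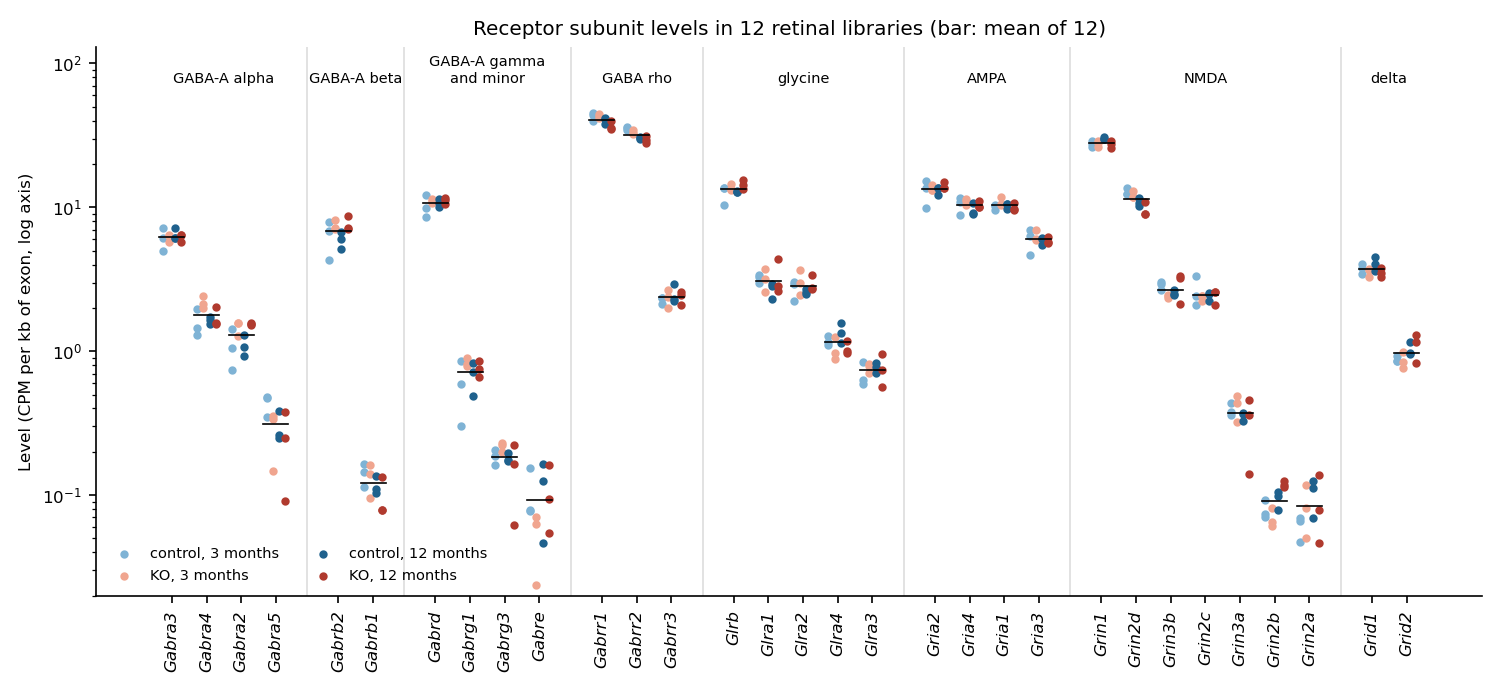
Level of 31 subunit genes in CPM per kilobase of exon on a log axis, by receptor class, with 1 point per library coloured by group and a bar at the mean of 12 libraries. Gabrr1, Gabrr2 and Grin1 lie highest, between 25.7 and 45.2 in every library, and Grin2a and Grin2b lie lowest of the NMDA genes, at means of 0.0835 and 0.0905.

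Within each class the per-length level was unevenly divided. Of the GABA-A alpha sum, Gabra3 took 24.3% (range over libraries 21.0% to 28.1%), and Gabra4, Gabra2 and Gabra5 took 6.89%, 4.99% and 1.23%. Among beta subunits Gabrb2 took 33.2% and Gabrb1 0.603%. Gabrd, the delta subunit of extrasynaptic receptors, held 47.5% of the gamma and delta sum. The second control library at 3 months departed from this, with 59.2% for Gabrd. No other library had Gabrd above 51.2%. All shares use the basic exon set. With all GENCODE transcripts the level of Gabrd was 7.20 CPM per kb, against 10.8.

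For the rho class, Gabrr1 held 54.1%, Gabrr2 42.7% and Gabrr3 3.18% of the per-length sum. The glycine receptor alpha sum was spread over Glra1 (39.3%), Glra2 (36.2%), Glra4 (14.9%) and Glra3 (9.56%). AMPA subunits were the most even: Gria2, the subunit whose edited form blocks calcium entry, held 33.5%, Gria1 and Gria4 each held 25.8%, and Gria3 held 14.9%. The lead of Gria2 depended on the exon set. With all GENCODE transcripts, Gria2 (9.07 CPM per kb) was below Gria4 (10.4) and Gria1 (9.87). The GluN2 sum was the least even, with 81.0% for Grin2d and 17.7% for Grin2c, and only 0.612% and 0.666% for Grin2a and Grin2b. The transcripts of those 2 genes are long, at 14967 and 24787 bp of exon in the annotation, and how much of that length is transcribed in retina was not tested.

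**Figure D2:**
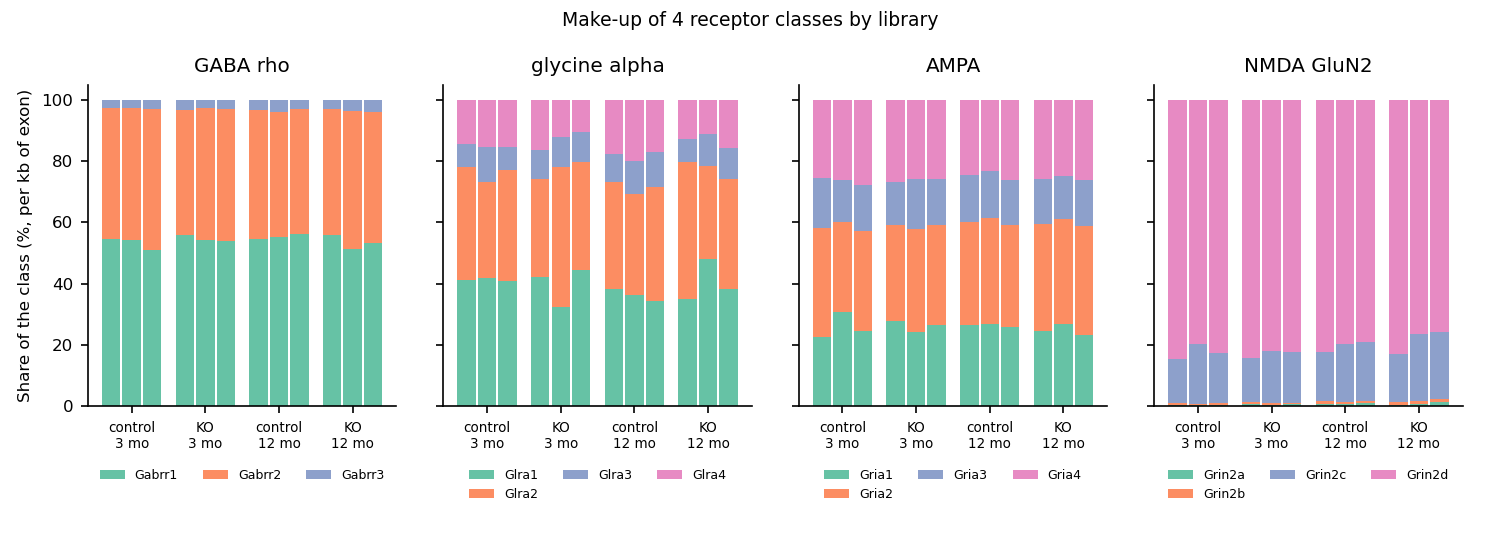
Stacked bars of each subunit's share of its class per kilobase of exon (%), 1 bar per library, for rho, glycine alpha, AMPA and GluN2 subunits in the 4 groups. Gabrr1 holds 51.1% to 56.1% of the rho sum and Grin2d 76.0% to 84.7% of the GluN2 sum in all 12 libraries.

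Of the 19 Gabr genes, 16 lie in 5 genomic groups of neighbours, and levels per length differed within them. On chromosome 11 (GRCm38), Gabrb2 at 6.86 CPM per kb lies next to the undetected Gabra6, at positions 42306437 to 42321072. All 4 genes of the chromosome 5 group were low, from Gabrb1 at 0.122 to Gabra4 at 1.78 CPM per kb. The chromosome 7 group held Gabra5 at 0.313 and Gabrg3 at 0.183 CPM per kb. On chromosome X, Gabra3 at 6.24 CPM per kb stood between Gabre at 0.0930 and Gabrq at 0.0309. Gabrr2 and Gabrr1 are adjacent on chromosome 4 and both were high. Gabra4 and Gabrb1 overlap by 388 bases, so reads from that stretch could not be assigned without strand, and the sources used here do not give the strand setting of the counting. Such overlaps were not limited to low genes. Of the 37 subunit genes, 23 overlap the annotated span of another gene, among them Grin1 (Grin1os, 7403 bases) and Gabrd (Cfap74, 6000 bases). The part of these overlaps in the levels was not tested.

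In the fit of all libraries subunits passed the test only for age, and Grin2d and Gabrr2 were the ones that did. Grin2d passed in KO retina (1 of 34 subunits, against 2.37% of all tested genes). Gabrr2 passed only in a contrast averaged over both genotypes and added after the data had been seen (2 of 34, against 6.38%). The 250 bases before the RefSeq start of these genes and of Gabrr1, the neighbour of Gabrr2, are shown in order to place the genes whose levels are described next. They run 5' to 3' on the gene's strand (GRCm38.p6), at chr7:45866682-45866931 (minus) for Grin2d, chr4:33062862-33063111 (plus) for Gabrr2 and chr4:33132306-33132555 (plus) for Gabrr1. The windows of Grin2d and Gabrr2 lie inside the annotated span of the gene, ahead of a start within it. Capitals mark TAATCC or its reverse complement GGATTA, the core bound by the homeodomain factors Crx and Otx2 of photoreceptors and bipolar cells.
Grin2d: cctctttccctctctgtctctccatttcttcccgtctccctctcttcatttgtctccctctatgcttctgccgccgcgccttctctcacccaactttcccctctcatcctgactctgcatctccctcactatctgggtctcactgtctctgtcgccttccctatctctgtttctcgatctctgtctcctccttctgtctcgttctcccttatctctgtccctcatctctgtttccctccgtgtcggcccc
Gabrr2: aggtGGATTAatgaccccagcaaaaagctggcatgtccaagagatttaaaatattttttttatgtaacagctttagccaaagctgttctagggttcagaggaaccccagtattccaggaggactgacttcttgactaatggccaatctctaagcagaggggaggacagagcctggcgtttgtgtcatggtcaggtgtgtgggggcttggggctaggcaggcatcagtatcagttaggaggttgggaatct
Gabrr1: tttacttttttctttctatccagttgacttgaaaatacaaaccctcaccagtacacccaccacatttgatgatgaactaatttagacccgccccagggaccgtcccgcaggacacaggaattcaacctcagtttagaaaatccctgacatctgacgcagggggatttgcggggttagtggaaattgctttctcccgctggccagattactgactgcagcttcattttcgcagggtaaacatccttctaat
The motif was searched on both strands. It occurred 1 time before Gabrr2 and not in the windows of Grin2d and Gabrr1, and it was in 6.25% of the 32851 RefSeq promoter windows of this length. Of the 25 subunit genes with an entry, 2 held it, the other being Gabra2. The Grin2d window was rich in pyrimidines, with 82.8% C or T, against a median of 50% over all windows and a 95th percentile of 60.4%.

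Grin2d encodes GluN2D, an NMDA subunit with slow deactivation and weak magnesium block. Its level was 76.4, 84.1 and 75.9 CPM in control and 79.4, 72.3 and 73.0 in KO at 3 months. At 12 months it was 71.0, 65.9 and 63.2 CPM in control and 66.8, 55.6 and 55.1 in KO. All 6 libraries at 12 months were below all 6 at 3 months. The share of all genes that separate in this way over both genotypes was not counted. The fall in KO retina was 0.34 on the log2 scale (log2 fold change -0.34 ± 0.084, SE, n = 3 per group, edgeR adjusted p = 0.0334). Grin2d was the 1 subunit of 34 called in that comparison at an adjusted p below 0.05, where 2.37% of 16475 tested genes were called. At an unadjusted p below 0.05 there were 5 subunits, against 13.3% of genes. Without the second control at 3 months 2 subunits were called, Grin2d and Grin2b, against 4.29% of genes. In control retina the log2 fold change was -0.24 ± 0.084 (adjusted p = 0.18), or -0.19 (adjusted p = 0.277) without the second control at 3 months and -0.15 with a correction for GC content. The difference between the changes with age in the 2 genotypes, which equals the change in KO effect from 3 to 12 months, was not called for any subunit.

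The Grin2d call in KO retina depended on single libraries. It was lost without KO replicate 1, 2 or 3 at 3 months and without KO replicate 2 or 3 at 12 months, with an adjusted p of up to 0.205, and was kept in 17 of 22 alternative fits. Averaged over both genotypes, a contrast added after the data had been seen, the log2 fold change was -0.29 ± 0.059 (adjusted p = 0.00433) and passed in all 21 alternative fits of that contrast. Because GluN2 shares are relative, the fall of Grin2d appeared only weakly there: its share was 82.4% ± 2.45 and 82.9% ± 1.18 (SD, n = 3) in control and KO at 3 months, and 80.5% ± 1.82 and 78.4% ± 3.85 at 12 months, with overlapping ranges. Between KO and control at 12 months the libraries of Grin2d overlapped, with a log2 fold change of -0.17 ± 0.084 (adjusted p = 0.577).

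Gabrr2 encodes the rho2 subunit. It was at 66.4, 69.5 and 68.9 CPM in control and 62.7, 66.3 and 63.7 in KO at 3 months, and at 57.3, 59.3 and 58.3 in control and 56.4, 60.6 and 53.9 in KO at 12 months. Again no library at 12 months reached the lowest at 3 months, a separation whose share over all genes was not counted. The log2 fold change was -0.23 ± 0.070 in control (adjusted p = 0.109, and -0.21 without the second control at 3 months) and -0.17 ± 0.070 in KO (adjusted p = 0.262). Neither passed alone. Averaged over both genotypes it was -0.20 ± 0.049 (adjusted p = 0.017), and this call was lost without KO replicate 2 at 3 months (adjusted p = 0.0602) or KO replicate 3 at 12 months (0.0502).

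Gabrr1, encoding rho1, was at 99.6, 103 and 90.6 CPM in control and 101.1, 98.0 and 94.9 in KO at 3 months. At 12 months it was at 87.1, 94.6 and 94.9 in control and 90.4, 81.5 and 79.8 in KO. The KO libraries of the 2 ages did not overlap, whereas the controls did. The log2 fold change was -0.22 ± 0.075 in KO (adjusted p = 0.146) and -0.15 ± 0.053 averaged over both genotypes (adjusted p = 0.0946), neither past the threshold. Gabrr3, the least abundant rho subunit, ranged from 8.53 to 12.5 CPM with no separation by age.

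Grin2b, which encodes the GluN2B subunit abundant in forebrain, had values of 1.83, 1.74 and 2.28 CPM in control and 1.52, 2.02 and 1.62 in KO at 3 months. At 12 months they were 2.44, 2.62 and 1.96 CPM in control and 2.84, 3.13 and 2.92 in KO. The 3 KO libraries at 12 months were the highest of the 12, and rested on 86 to 93 counts each. The log2 fold change in KO was 0.78 ± 0.23 (adjusted p = 0.0814), below the threshold in the fit of all libraries and past it without the second control at 3 months (adjusted p = 0.0474). Averaged over both genotypes it was 0.52 ± 0.16 (adjusted p = 0.0574).

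Grin2a encodes GluN2A, the subunit that replaces GluN2B at many forebrain synapses during development. It was at 0.985, 0.704 and 1.04 CPM in control and 1.75, 0.754 and 1.2 in KO at 3 months, and at 1.67, 1.04 and 1.89 in control and 0.694, 1.18 and 2.07 in KO at 12 months. The KO libraries at 12 months held both the lowest and the highest value of the 12. The control libraries at 12 months were just above those at 3 months, and the other groups overlapped. With age in control the log2 fold change was 0.75 ± 0.40 (adjusted p = 0.468). The log2 ratio of Grin2a to Grin2b in CPM averaged -1.11 ± 0.206 (SD) in control and -0.54 ± 0.823 in KO at 3 months, and -0.64 ± 0.646 and -1.31 ± 0.774 at 12 months, with no group apart from the others.

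**Figure D3:**
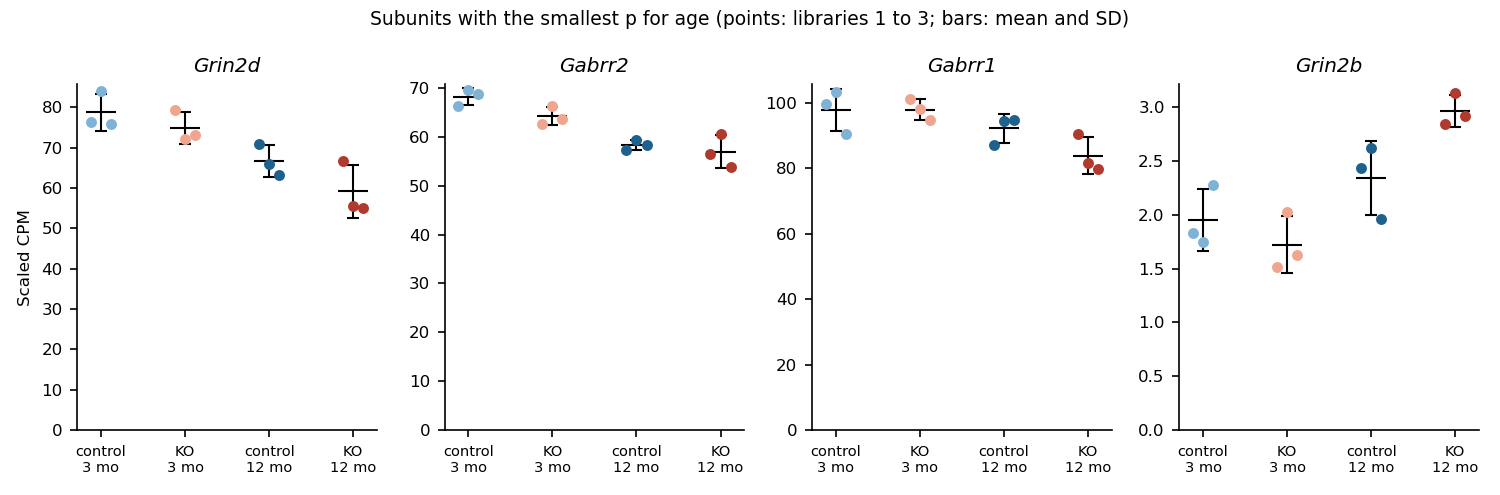
Scaled CPM of Grin2d, Gabrr2, Gabrr1 and Grin2b in each library (points) of the 4 groups, with the group mean and SD (bars), on axes that start at 0. For Grin2d and Gabrr2 the 6 libraries at 12 months lie below the 6 at 3 months, and Grin2b is highest in the 3 KO libraries at 12 months, at 2.84 to 3.13.

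Few subunits passed the test for age. In control retina none of 34 passed (2.11% of all tested genes did), 2 had an unadjusted p below 0.05 (Gabrr2 and Grin2d, against 12.5% of genes), and limma called 1 and DESeq2 none. Without the second control at 3 months 6 of 34 had an unadjusted p below 0.05, of which 5 were lower at 12 months, against 14.5% of genes. The 2 ages did not overlap for 6 of 34 subunits in control, where 17.5% of all genes had that separation (16 of 34 and 34.9% without that library, which leaves fewer values to overlap), and for 4 of 34 in KO (Grin2d, Gabrr1 and Gabrr2 lower and Grin2b higher), where 22.2% did. Averaged over both genotypes 2 of 34 were called, against 6.38% of genes, and 5 had an unadjusted p below 0.05, against 18.7% (8 of 34 and 21.6% without that library). The median log2 fold change of the 34 was 0.031 in control and -0.073 without the second control at 3 months, and -0.016 in KO. The median of all genes was 0.0016 in control and -0.00069 in KO.

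In bulk tissue, fewer cells of a type and less RNA per cell cannot be told apart. Markers of bipolar cells, 10 genes, summed to 2556 to 2713 CPM in control and 2530 to 2560 in KO at 3 months, and to 2644 to 2680 in control and 2409 to 2506 in KO at 12 months. The KO sums were lower at 12 months without overlap, and Grm6 was the 1 marker of the 10 called with age. Summed without Grm6, a choice made after the data had been seen, the other 9 came to 2181 to 2210 CPM at 3 months and 2152 to 2230 at 12 months in KO, which overlapped, and to 2179 to 2292 and 2303 to 2390 in control, higher at 12 months. The 5 horizontal cell markers found summed to 345 to 352 CPM in KO at 3 months and 309 to 338 at 12 months, and to 359 to 364 and 335 to 356 in control. The 10 amacrine cell markers summed to 1473 to 1533 and 1447 to 1479 CPM in KO and to 1494 to 1552 and 1480 to 1541 in control. The 9 microglial markers, which were higher at 12 months, summed to 45.4 to 50.0 CPM at 3 months and 60.2 to 67.4 at 12 months over both genotypes. The part of any of these in the results was not tested.

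Between libraries labelled KO and control no subunit passed the test at either age. At 12 months the labelled deletion cannot be told apart from whatever raised Xist in the KO libraries. At 12 months, 0 of 34 were called, where 0.212% of all genes were, and DESeq2 and limma also called none. In the fit of all libraries only Gabra2 had an unadjusted p below 0.05, against 8.7% of genes. Leaving out the second control at 3 months, which is in neither of these groups but in the shared fit, gave 7 of 34 (5 higher and 2 lower in KO), against 14% of genes, and still 0 called. At 3 months, 0 of 34 were called, where 0.225% of genes were, again with none by DESeq2 or limma, and 4 had an unadjusted p below 0.05, against 7.5% (2 of 34 and 4.35% without the second control). For the change in KO effect from 3 to 12 months, 0 of 34 were called (0.127% of genes), none had an unadjusted p below 0.05 (4.33% of genes; 1 of 34 and 7.12% without the second control), and the smallest p belonged to Grin3b and Gabra4. On simulated counts of the 12-month comparison, the fit recovered 94% of 67 genes changed by 2-fold and 59.7% of 67 changed by 1.5-fold. Of its 180 calls 11 were false. The simulation held no smaller change and no shift of a whole library, such as one tied to GC content. Recovery of smaller differences was not tested.

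Gabra2, encoding the alpha2 subunit, had the smallest p at 12 months and the next smallest at 3 months. It was at 8.32, 4.32 and 6.16 CPM in control and 7.52, 9.15 and 9.20 in KO at 3 months, and at 5.41, 6.22 and 7.56 in control and 9.25, 8.88 and 9.06 in KO at 12 months. The groups overlapped at 3 months and not at 12 months. The log2 fold change was 0.46 ± 0.19 at 3 months (adjusted p = 0.649) and 0.25 without the second control. At 12 months it was 0.50 ± 0.19 (adjusted p = 0.44). Averaged over both ages it was 0.48 ± 0.13 (adjusted p = 0.162), and 0.38 (adjusted p = 0.196) without the second control at 3 months. The value fell to 0.30 (adjusted p = 0.288) with a correction for GC content, and it passed without control replicate 1 at 3 months (0.61, adjusted p = 0.032) and with DESeq2 (0.48, adjusted p = 0.0447). In that averaged comparison 0 of 34 subunits were called, against 0.316% of genes, and 5 had an unadjusted p below 0.05, against 12.9%. In the authors' deposited table for 12 months, Gabra2 had a log2 fold change of 0.29 (adjusted p = 0.231), and none of 35 subunits with an adjusted p in that table was below 0.05, against 0.636% of 17139 genes. Unadjusted, 3 of the 35 were below 0.05 in that table, among them Gabra2 and Gabrb2 (0.26), against 6.61% of the 21185 genes with a p.

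Gabra4, encoding the alpha4 subunit of extrasynaptic receptors, had the smallest p at 3 months. It was at 8.29, 5.40 and 6.06 CPM in control and 10.2, 8.98 and 8.32 in KO at 3 months, so that the lowest KO library was just above the highest control. At 12 months it was at 6.47, 6.93 and 7.19 in control and 8.46, 6.62 and 6.52 in KO, which overlapped. At 3 months the log2 fold change was 0.48 ± 0.16 (adjusted p = 0.628, and 0.35 without the second control) and 0.069 at 12 months. The difference of the 2 effects was -0.41 ± 0.23 (adjusted p = 0.999).

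Grin3b, which encodes a glycine-binding NMDA subunit, had values of 8.70, 9.99 and 9.57 CPM in control and 8.00, 7.71 and 8.08 in KO at 3 months. At 12 months they were 8.21, 8.14 and 8.77 CPM in control and 10.9, 10.5 and 6.99 in KO. At 3 months every KO library was below every control, and at 12 months the KO libraries lay on both sides of the controls. The difference of the KO effects was 0.43 ± 0.21 (adjusted p = 0.999).

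At 12 months the groups did not overlap for 7 of 34 subunits, against 16.6% of all genes. Of the 7, 6 were higher in KO (among them Gabra2, Gabrb2, Glrb, Glra2 and Grin2b), where 8.32% of genes were, and 1 was lower (Grin1). At 3 months the groups did not overlap for 5 of 34, against 15.6% of genes (10 of 34 and 26.1% without the second control): in the full set 2 were higher, among them Gabra4, and Grin3b, Gabre and Gabrr2 were lower. No subunit was in both lists. The median log2 fold change of the 34 was -0.0049 at 12 months (all genes, -0.0020) and 0.072 at 3 months (all genes, 0.0018), the latter 0.015 without the second control.

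The leading subunits of the glycine, AMPA, NMDA and delta classes per length (basic exon set) give the size of these differences in abundant genes. Glrb encodes the beta subunit that ties glycine receptors to gephyrin. It was at 43.4, 33 and 43.1 CPM in control and 46.3, 42.2 and 42.9 in KO at 3 months, and at 41.5, 41 and 40.4 in control and 49.0, 43.0 and 45.6 in KO at 12 months. At 12 months the groups did not overlap, but the log2 fold change of 0.16 had an unadjusted p above 0.05 in the fit of all libraries. Without the second control at 3 months, 1 of the 5 glycine receptor subunits was below 0.05 in that comparison. Averaged over both ages the log2 fold change of Glrb moved from 0.15 to 0.0034 with the GC correction and to 0.090 without that control.

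Among the excitatory subunits, Gria2 was at 159, 104 and 143 CPM in control and 138, 151 and 139 in KO at 3 months, and at 129, 143 and 143 in control and 143, 143 and 157 in KO at 12 months. Grin1 was at 126, 121 and 114 CPM in control and 122.6, 114 and 127 in KO at 3 months, and at 130, 134 and 130 in control and 112, 126 and 120 in KO at 12 months. The 12-month groups did not overlap for Grin1, with KO lower (log2 fold change -0.14 ± 0.071, adjusted p = 0.6). Grid1, encoding the delta receptor subunit that binds cerebellin at synapses, was at 19.8, 23.1 and 21.5 CPM in control and 20.9, 18.6 and 21.3 in KO at 3 months, and at 25.7, 20.6 and 22.9 in control and 18.6, 19.9 and 21.8 in KO at 12 months, with overlap at both ages.

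**Figure D4:**
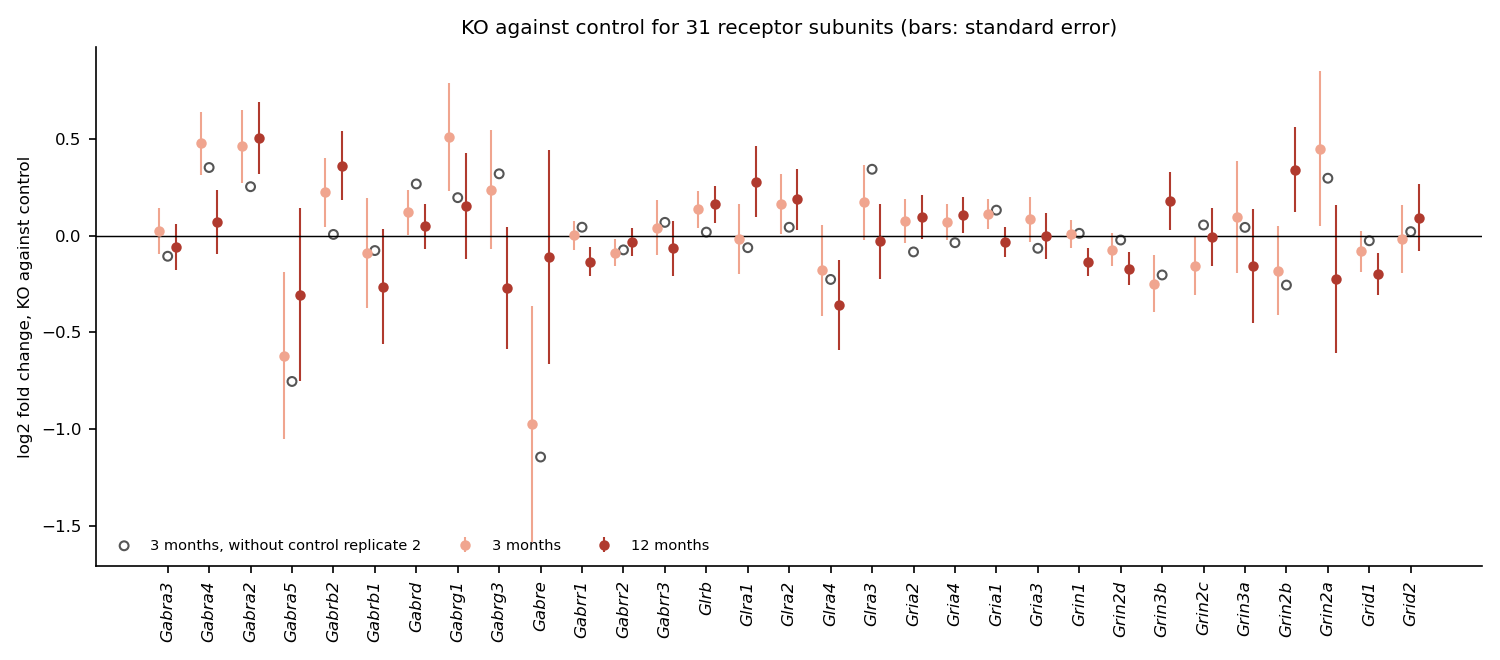
Log2 fold change of KO against control for 31 of the tested subunits, grouped by class, at 3 and 12 months (filled points, bars of 1 standard error) and at 3 months without the second control library (open circles). Values at 12 months run from -0.36 (Glra4) to 0.50 (Gabra2), and several open circles lie nearer 0 than the filled points, as for Gabra2 (0.46 and 0.25) and Gabrb2 (0.22 and 0.0059).

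The X-linked subunits Gria3, Gabra3, Glra2, Glra4 and Gabre lie on the chromosome whose Xist transcript was high in the KO libraries at 12 months. None of the 5 was called, and their median log2 fold change at 12 months was -0.058.

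The second control library at 3 months was low for a subset of subunits. It was below both other controls for 20 of 34, where 39.7% of all genes were below both in that library. The median deviation from the mean of the other 2 controls was -0.18 on the log2 scale, from -1.19 for Gabrg1 to 0.56 for Grin2c. The 16 subunits that were more than 0.3 below included Gabrg1, Gabrb2, Gabra2, Gria2, Gria3 and Glrb. Grin1, Gabrr1, Gabrr2 and Grin2d were at or above the other controls, within 0.15. Wide scatter of the subunits was not limited to this library. The SD of their deviations was 0.387 here (0.462 over all genes). At 12 months it was 0.525 in KO replicate 1 (0.373 over all genes), with deviations from -1.49 to 1.13, and 0.442 in KO replicate 2 (0.294). The cause was not tested.

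The low subset differed in base composition. The median GC content of the longest coding transcript was 42.1% for those 16 and 49.5% for the other 18, against 50.6% for all tested genes. Of 18 subunits under 45% GC, 14 were below the other controls, with a median deviation of -0.44 (all genes in that range, -0.37). None of the 5 over 55% GC was below, and their median was 0.14 (all genes, 0.20). Across genes, Spearman's rho between deviation and GC was 0.53 over the 34 subunits and 0.62 over 14616 genes, which share 1 library and are not independent replicates. Lens genes, and pigment epithelium genes at 245 CPM against 152 and 164, were also high in this library, and their part in the pattern was not tested.

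**Figure D5:**
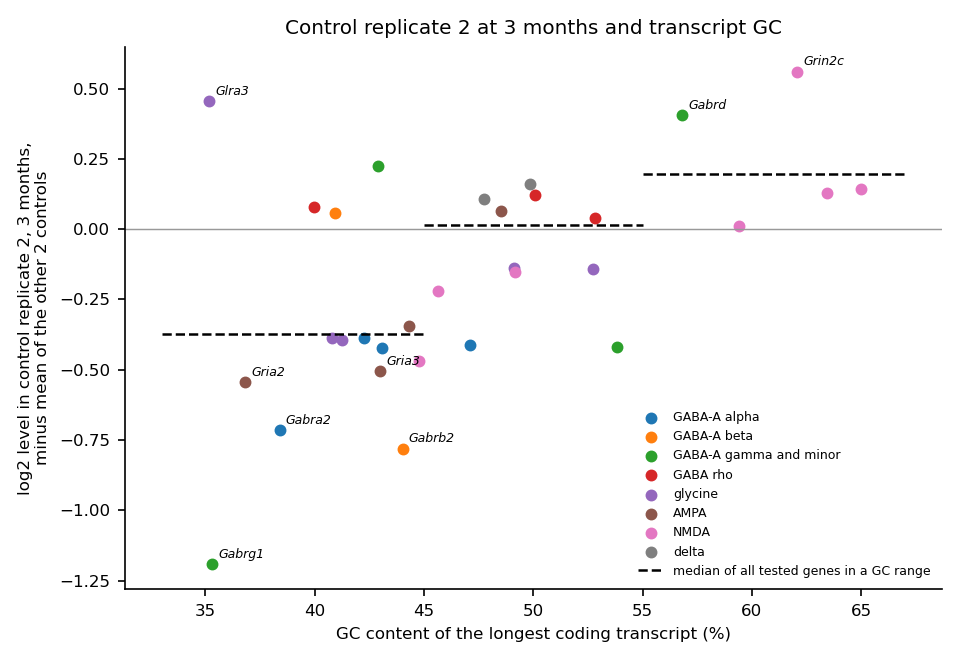
Log2 level of 31 subunits in the second control library at 3 months minus the mean of the other 2 controls, against transcript GC content (%), coloured by class, with dashed lines at the median of all tested genes in each of 3 GC ranges. Subunits under 45% GC lie mostly below 0, down to -1.19 for Gabrg1, and the 5 over 55% lie above 0, up to 0.56 for Grin2c.

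The same composition ran through the KO fold changes. At 3 months rho between GC and log2 fold change was -0.64 over the 34 subunits (-0.31 without the second control) and -0.47 over all genes (-0.09 without it). At 12 months, where that library has no part in the fold change, rho was -0.32 over the subunits and -0.36 over all genes. The subunits that were higher in KO at 12 months without overlap were of low GC content, from 38.4% (Gabra2) to 45.7% (Grin2b), and Grin1, the lower one, was at 59.4%. The part of GC content in these differences was not tested beyond the corrected values given above.

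Partner genes were read from lists written with earlier results of these data known. Of 19 genes for inhibitory synapse scaffolds, GABA and glycine synthesis and transport, chloride transport and GABA-B receptors, none was called in any comparison in the fit of all libraries. Averaged over both ages, 4 of the 19 had an unadjusted p below 0.05 for KO against control, where 12.9% of all genes did. The smallest p were those of Nlgn2, the adhesion protein of inhibitory synapses, at -0.17 ± 0.050 (adjusted p = 0.199) and Slc32a1, the vesicular transporter of GABA and glycine, at -0.18 ± 0.057 (adjusted p = 0.232). Without the second control at 3 months Nlgn2 was called for KO against control at 12 months (log2 fold change -0.28 in the fit of all libraries, adjusted p = 0.143 with that library and 0.026 without it), and Slc12a2, a chloride importer, was called for age averaged over genotypes. Of 26 AMPA, NMDA and delta receptor partners, 1 was called for age averaged over genotypes, where 6.38% of all genes were. Cbln4, a secreted synapse organiser of the cerebellin family, had a log2 fold change of -0.34 ± 0.10 (adjusted p = 0.0462). The next smallest p was that of Cacng4, an AMPA receptor auxiliary subunit, at -0.21 ± 0.070 (adjusted p = 0.0806). Without the second control at 3 months Cbln4 was also called for age in control (adjusted p = 0.0353) and Nptx1, a neuronal pentraxin, for age in KO (0.0446). The 3 adenosine deaminase genes for RNA editing (Adar, Adarb1 and Adarb2) had no call in any comparison.

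Of 15 kainate and metabotropic glutamate receptor genes, 3 were called with age in control and 2 of them in KO, where 2.11% and 2.37% of all genes were. Without the second control at 3 months 1 was called in control, Grik3, and the same 2 in KO. Grik3, a kainate receptor subunit, rose from 12.8 ± 0.481 to 19.4 ± 1.30 CPM in control (SD, n = 3; log2 fold change 0.59, adjusted p = 0.00687) and from 11.2 ± 0.323 to 16.6 ± 2.52 in KO (0.56, adjusted p = 0.0121). Grm6, the receptor through which ON bipolar cells sense photoreceptor glutamate, fell from 392 ± 24.6 to 317 ± 27 CPM in control (-0.31, adjusted p = 0.0277, and 0.0503 without the second control at 3 months) and from 350 ± 6.84 to 270.2 ± 11.7 in KO (-0.37, adjusted p = 0.00645). Grm3, a presynaptic and glial receptor, fell from 2.16 ± 0.756 to 0.862 ± 0.162 CPM in control (-1.32, adjusted p = 0.0302, and 0.0671 without that library) and was at 1.2 ± 0.216 and 1.28 ± 0.204 in KO. None of the 15 was called between KO and control at either age.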

How the data were processed

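Per the labels' protocols, libraries were stranded and poly(A)-selected, from RNA of integrity number over 8.0. Per the submitters' processing notes, HISAT2 2.1.0, featureCounts 1.6.4, DESeq2 1.22.1 and the build GRCm38 were used. The sources used here do not give the strand setting or how read pairs and multiple alignments were treated. The authors deposited raw counts per gene ID and library. They also deposited a table for 12 months, read as log2 fold change, p-value and adjusted p-value.

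All IDs of the 37 subunits were named from RefSeq tables of that build. Even numbers made up 60.7% to 70.2% of the counts from 1 to 20, so a low count may stand for fewer fragments. Counts were fitted in edgeR 4.0.16 (R 4.3.3) with filterByExpr, TMM scaling, 1 coefficient for each of the 4 groups over all 12 libraries and robust quasi-likelihood tests, adjusted by Benjamini-Hochberg over 16475 genes. The genotypes were compared within each age and the ages within each genotype, and the KO effects of the 2 ages with each other. The 2 averaged contrasts were added after seeing the data. CPM values are TMM-scaled. Exon lengths are the union of exons in the GENCODE basic set, and promoter windows are from RefSeq (GRCm38.p6). The fit was tested on simulated data. Alternatives were DESeq2 1.42.0, limma 3.58.1 with quality weights, other scaling and filters, a replicate block, a GC offset, halved counts and each library left out. Log2 deviations of a library used a pseudocount of 0.1 CPM.

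The genes described by library are those called in a planned comparison, the 2 with the smallest p in each, the highest per length in each class, Grin2a and Grin2b. Some subunits are not reported here by name, also in the figures, and remain in the counts and sums. The set of genes, the rule and the lists were chosen with earlier results of these data known.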

Additional observations from a re-analysis of the deposited data

How the results depend on the processing

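The 22 pairs of subunit and comparison with an unadjusted p below 0.05 kept their direction in all alternative fits. These pairs were picked for estimates far from 0 relative to their SE, and the alternatives reuse the same libraries. A kept direction was therefore nearly given by that choice. Of all 238 pairs of the 34 subunits and 7 comparisons, 110 changed direction in at least 1 fit. Among them were Gria2 and Glrb for KO at 3 months, Gabra4 for KO at 12 months and Gabra2 for age in control. The number of subunits called was 0 in all alternatives for KO against control at either age and for the change in KO effect between ages. For age in control it was 1 with limma and 1 with the GC offset, for age in KO 2 with DESeq2 and 4 with limma, for KO averaged over ages 1 with DESeq2, and for age averaged over genotypes 5 with limma and 4 with the GC offset. With single libraries left out it ran from 0 to 2 for age in KO, 0 to 1 for KO averaged and 1 to 3 for age averaged.

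The median log2 fold change of the 34 subunits was close to 0 throughout. With limma it was 0.044 for KO at 12 months, 0.013 for KO at 3 months, -0.058 for age in control, 0.0051 for the change in KO effect and -0.041 for age averaged, and with the GC offset it was -0.012 for KO at 3 months. With single libraries left out it ran from -0.045 to 0.070 for KO at 12 months, 0.015 to 0.087 for KO at 3 months, -0.073 to 0.078 for age in control, -0.065 to 0.0069 for age in KO, -0.11 to 0.023 for the change in KO effect, 0.0079 to 0.095 for KO averaged and -0.054 to 0.022 for age averaged.

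The background of all genes moved more, so the shares beside the subunit counts hold for the edgeR fit of all libraries. For KO at 12 months 35 genes were called, and 64 without a filter, 127 with DESeq2, 163 with limma, 66 with the GC offset and 13 to 166 with single libraries left out. For KO at 3 months the 37 became 63 with DESeq2, 76 with limma and 21 to 41 with libraries left out. For age in control the 347 became 571 with DESeq2 and with the GC offset, 760 with limma, 198 from those 2 groups alone and 201 to 479 with libraries left out. For age in KO the 390 became 592, 1268 and 591 with DESeq2, limma and the GC offset, and 187 to 717. For the change in KO effect the 21 became 41 with DESeq2 and 56 with limma. For KO averaged the 52 became 167, 197 and 83 with those 3 and 34 to 71 with libraries left out, and for age averaged the 1051 became 2160 with limma and 693 to 1371. The highest of these ranges, except for KO at 3 months and age in control, came without the second control at 3 months. The cause was not tested.

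Libraries with the same replicate number did not deviate together (correlations -0.082 to 0.14). The labels name no pairing, and these correlations cannot exclude one. With the replicate block, Grin2d for age in KO had an adjusted p of 0.0294, 1 subunit was called in that comparison and 0 in the other 4 planned ones. Fewer than 100 counts per library stood behind Grin2a and Grin2b, which limits what could be detected for them.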
